A study of Homo sapiens with 12 samples.

Results

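CXXC5 knockdown was set against a scrambled shRNA control in K562 cells, a line established from human leukemia that keeps erythroid features. The comparison used the 3 arrays titled CXXC5 shRNA and the 3 arrays titled scrambled shRNA control, which are 6 of the 12 arrays of the study, and it was read across all 19064 probe sets paired with 1 gene symbol, which stand for 11963 genes. The knockdown cells carried shRNA against CXXC5 from the pLKO.1 vector by stable lentiviral infection, and the scrambled cells carried a pLKO scrambled shRNA by the same route. A pair of shRNA clones against CXXC5 is listed without saying which knockdown sample carried which, so the clones were not compared. The other 6 arrays, K562 cells nucleofected with pEGFP-CXXC5 or with the empty vector pEGFP-C2 (3 each), entered the estimate of the spread. Rises and falls below are against scrambled arrays only, and the comparison with empty vector is given near the end of the results. All groups were kept in serum-free medium with Wnt3a at 100 ng/ml and RNA was taken after 8 h, so no group shows these cells without Wnt3a. Whether replicates were separate cultures is not stated, and the p-values cover only the spread seen among these samples, which may be technical.

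CXXC5 is a zinc finger protein that binds CpG-rich DNA and, in the cytoplasm, binds Dishevelled, the protein that carries the signal from Frizzled receptors for Wnt ligands towards beta-catenin. NF-kappaB is a family of transcription factors held inactive by inhibitor proteins; once released it induces chemokine, cytokine and adhesion genes, and also its own inhibitors. Early response genes such as EGR1 and FOS are induced within minutes of growth factor or stress signalling, and chaperones of the endoplasmic reticulum fold secreted and membrane proteins and are induced when unfolded protein accumulates there.

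Among the probe sets with 1 symbol 0 named CXXC5, so the targeted transcript, which would check the knockdown label, was not analysed here. Of 9 measured K562 markers, which lay between percentiles 73.2 and 99.4 of mean level, 4 fell (HBE1, ALAS2, HBZ and TFRC) and 1 rose (GATA1). The other HBE1 probe set had a positive change, 0.11. Of 17 fibroblast markers FN1 alone fell; of 21 lymphoid markers CD3D and PRF1 fell, 0 without scrambled replicate 3; of 12 epithelial markers MUC1 fell, a call also lost without that array; and of 15 monocyte markers 0 passed by limma, with 1 higher at an unadjusted p under 0.05. Summed on a linear scale, the K562 markers stood at 25281 to 25881 in knockdown arrays and 31301 to 32061 in scrambled arrays, which did not overlap. By the same sum the fibroblast markers stood at 4627 to 4754 in knockdown arrays and 5650 to 5805 in scrambled arrays, the lymphoid markers at 2696 to 2724 and 2966 to 3637, the monocyte markers at 1741 to 1805 and 1658 to 1868, and the epithelial markers at 10491 to 11163 and 10860 to 11438. A linear sum weighs bright genes most, and the brightest K562, fibroblast and lymphoid markers were TFRC, FN1 and CD3D, which fell. Single markers went both ways, with positive changes in 4 of 9 K562, 7 of 17 fibroblast and 7 of 21 lymphoid markers. The median percentile of mean level was 31.0 for fibroblast, 28.6 for lymphoid, 19.1 for monocyte and 37.5 for epithelial markers. Dim ones included COL3A1, LUM, CD2, CD28, CSF1R, S100A9 and KRT14, between percentiles 0.692 and 24.7. Bright ones were also present, with CD3D and FN1 at percentiles 93.3 and 93.1, KRT18 at 97.5 and LYZ at 88.0. SPARC, KRT8, KRT19 and EPCAM lay between 92.9 and 94.7, and no marker has a true 0 on an array. The part of other cells in the results was not tested, and fewer cells of a type and less RNA per cell cannot be told apart in bulk RNA. Scrambled replicate 3 stood apart from the other 5 shRNA arrays. Its 3' minus 5' log2 difference, a sign of RNA and labelling quality, was 0.87 for GAPDH, against 0.233 to 0.335 in the other 5, and 2.68 for the spiked-in phe control, against 0.159 to 0.593. It held 143 genes at least 0.5 log2 below their group median, against 55 in knockdown replicate 1 and at most 13 in each of the other 4. Of the ribosomal RNA control probe sets 3 were higher in every knockdown array: the 5' set of 28S RNA was at 12.2 to 12.4 log2 in knockdown arrays and 11.7 to 11.9 in scrambled arrays, and the 5' and middle sets of 18S RNA also separated. The others overlapped, with the middle 28S set at 10.39 to 10.65 in knockdown arrays and 10.35 to 10.45 in scrambled arrays. The 3' 18S set was at 11.2 to 11.8 and 11.4 to 11.8, and the 3' 28S set at 5.81 to 6.23 and 6.18 to 6.35. The part of these ribosomal RNA signals in the results was not tested.

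A gene was said to rise or fall where the limma adjusted p of its brightest probe set was under 0.05. By this rule 884 genes rose and 529 fell in knockdown arrays against scrambled arrays, which is 7.39% and 4.42% of the genes, and 1413 together (11.8%). Over single probe sets 1971 changed (10.3%), 1241 up (6.51%) and 730 down (3.83%). Most of these changes were small, with a median size of 0.38 log2, and 36 genes (0.301%) changed at least 2-fold, 14 up (0.117%) and 22 down (0.184%). Without scrambled replicate 3, 763 rose (6.38%) and 447 fell (3.74%), 10.1% together, and 1053 genes (8.8%) changed the same way with and without it. Across all genes the median change was -0.00911 log2, and the groups did not overlap for 3879 genes (32.4%).

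The share of genes that changed differed with brightness. With the genes cut into 5 equal bins by mean level, in the dimmest bin 7 rose and 21 fell of 2393, 1.17% together, while in bin 4 327 rose and 182 fell of 2392, 21.3% together. The brightest bin held 235 rises and 126 falls, and in it 5 genes fell at least 2-fold and 0 rose as much. Those 5 were IER3, an early response gene that protects against apoptosis, EGR1, the stress cytokine GDF15, the activation antigen CD69 and CXCL8. In the highest 10% of level the largest rises were HSPA5 at 0.85, SDF2L1 at 0.83, the dynein light chain DYNLL1 at 0.73, the endoplasmic reticulum lectin MLEC at 0.60 and the surface glycoprotein CD24 at 0.57 (log2 changes).

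**Figure D1:**
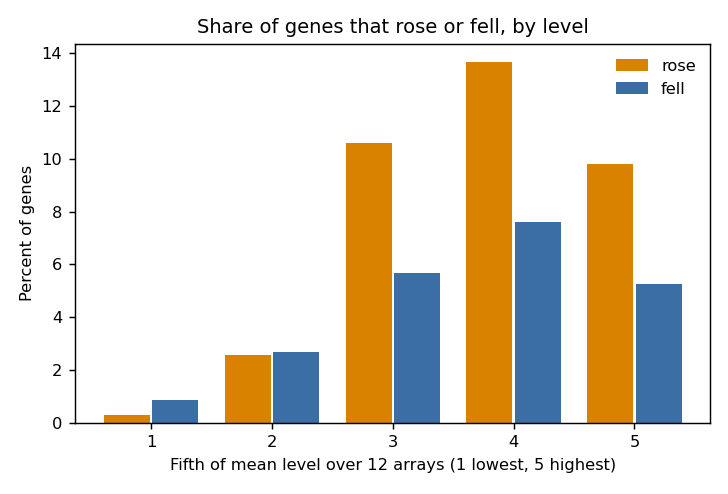
Percent of genes that rose or fell in knockdown arrays against scrambled arrays (limma, adjusted p), in 5 equal bins of mean log2 level over all 12 arrays; bars for rises stand left of bars for falls. The share of genes that changed was 1.17% in the dimmest bin and 21.3% in bin 4.

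Chemokine genes were among the largest falls. CXCL1, which attracts neutrophils, was at 5.64, 6.01 and 5.46 log2 in the knockdown arrays, against 9.29, 9.54 and 9.22 in the scrambled arrays (log2 change -3.65, SE 0.139, adjusted p = 4.6e-08). CXCL10, a T cell chemokine, was at 5.63, 5.63 and 5.76 in knockdown arrays and 8.66, 8.59 and 8.44 in scrambled arrays (-2.89, SE 0.0741, adjusted p = 6.09e-10). Every knockdown array was below every scrambled array for both genes, as the choice of the 25 largest falls required. CXCL8, another neutrophil chemokine and the brightest of the group, was at 9.64, 9.36 and 9.70 in knockdown arrays and 11.65, 11.84 and 11.87 in scrambled arrays, and its other probe set stood at -1.79 against -2.22 for the brightest. CXCL2 (-2.48), CXCL3 (-2.38) and the macrophage chemokine CCL4 (-1.74) completed the 6 of 16 chemokines that fell, and CCL2, a monocyte chemokine, rose by 0.57. The median over the 16 was -0.09, since the other 9 did not pass.

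CXCL1, CXCL2 and CXCL3 lie on chromosome 4 and are close relatives, and their promoters share a stretch with a string of the NF-kappaB type. The sequences below are RefSeq promoter windows (GRCh38.p14) from 250 bases before to 50 after each gene's start, cut to 30 bases on each side of the string. They are shown because they belong to 6 of the genes with the largest falls; capitals mark GGANTTTCC, or GGG then any 2 bases then TTTCC, strings that can overlap and were searched on both strands, and bases run 5′ to 3′ on the strand of the gene.
CXCL1, chr4:73869284-73869353, plus strand: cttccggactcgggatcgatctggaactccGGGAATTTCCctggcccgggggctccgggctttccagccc
CXCL2, chr4:74099234-74099303, minus strand: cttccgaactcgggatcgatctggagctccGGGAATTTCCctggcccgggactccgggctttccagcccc
CXCL3, chr4:74038729-74038798, minus strand: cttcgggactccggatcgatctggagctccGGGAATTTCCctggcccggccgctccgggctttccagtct
CXCL8, chr4:73740448-73740516, plus strand: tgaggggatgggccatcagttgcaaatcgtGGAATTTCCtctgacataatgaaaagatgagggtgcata
CXCL10, chr4:76023635-76023703, minus strand: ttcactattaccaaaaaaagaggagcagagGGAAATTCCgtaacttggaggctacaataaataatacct
LTB, chr6:31582472-31582541, minus strand: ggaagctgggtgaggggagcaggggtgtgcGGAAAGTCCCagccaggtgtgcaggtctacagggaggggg

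In CXCL1, CXCL2 and CXCL3 the 10 capitals read the same and start 79, 78 and 79 bases before the gene's start. Either string was present in 2.97% of all 27305 promoter windows, in 3.19% of the 9563 measured genes with a window and in 6.4% of the 422 genes that fell and had one. It was present in 3.62% of the 745 genes that rose and had one. Of 56 genes on the NF-kappaB lists with a window 19 held it (33.9%), and of the 20 of these that fell 11 did. These 11 were the 6 genes shown with ICAM1, IL6, NFKB1, NFKBIA and TNFAIP3. They are among the 27 genes behind the 6.4%, so that share is in part the share of the NF-kappaB lists. A match of letters is a description and not a binding site, and the lists were drawn up from known NF-kappaB targets.

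Cytokines, adhesion receptors and surface molecules under NF-kappaB fell next, 9 of 19 with 0 rises and a median of -0.44. LTB, the lymphotoxin subunit that signals in lymphoid tissue, was at 7.76, 7.84 and 7.89 in knockdown arrays and 10.92, 11.13 and 10.93 in scrambled arrays, an 8.96-fold difference (adjusted p = 3.01e-10). ICAM1, the adhesion receptor for leukocyte integrins, was at 7.98, 7.99 and 8.01 in knockdown arrays, against 9.71, 9.88 and 9.65 in scrambled arrays, and its other probe sets stood at -1.44 and -0.71. For LTB and ICAM1 the 3 knockdown values lay within 0.2 log2 of each other and far below all scrambled values. Groups without overlap were required by the choice of the 25 largest falls. CD83 (-1.41), a marker of activated dendritic and B cells, CD69 (-1.27), the inflammatory cytokines IL6 (-1.12), IL1A (-0.98) and TNF (-0.90) and the macrophage growth factor CSF1 (-0.53) also fell.

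The inhibitors that NF-kappaB induces fell with these targets, 4 of 10 with 0 rises. NFKBIA, which holds NF-kappaB in the cytoplasm, was at 8.40, 8.09 and 8.28 in knockdown arrays and 9.15, 9.41 and 8.70 in scrambled arrays (-0.83, adjusted p = 0.00512). The 3 knockdown values were below the scrambled ones, of which replicate 3 was the lowest, and without it the change was -1.02. The ubiquitin-editing brake TNFAIP3 (-0.97), NFKBIE (-0.60) and TNIP1 (-0.39) fell as well. Of 15 subunits and upstream kinases RELB (-1.01), NFKB1 (-0.66), NFKB2 (-0.52) and MAP3K14 (-0.47) fell and the kinase TBK1 rose by 0.59; the NFKB2 change did not pass without scrambled replicate 3 (-0.45, adjusted p = 0.111). Of 8 survival genes 3 fell, CFLAR (-0.80), which blocks caspase-8, TRAF1 (-0.35) and BCL2L1 (-0.34), of which TRAF1 did not pass without scrambled replicate 3. CFLAR was read by 11 probe sets, and the others ranged from -0.75 to 0.000187; the other BCL2L1 probe sets stood at 0.00143 and 0.05. Across them 26 of 68 genes of the 5 NF-kappaB lists fell and 2 rose, 38.2% and 2.94%, with a median of -0.14; without scrambled replicate 3 these were 24 and 2.

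**Figure D2:**
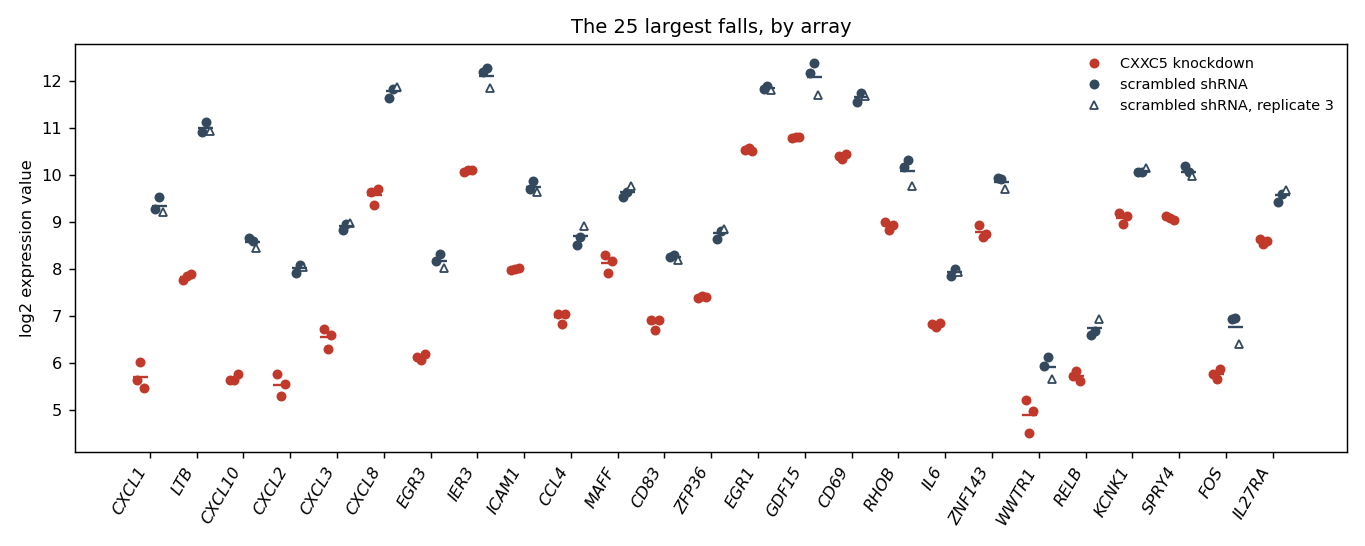
Log2 expression value (y axis) of the 25 genes with the largest falls in each of the 3 knockdown arrays (left of each gene, red) and the 3 scrambled shRNA arrays (right, dark), with horizontal lines at the means and open triangles for scrambled replicate 3. The genes were chosen for size and for groups that do not overlap; CXCL1 has the widest gap between means.

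Factors of the early response fell over several families. MAFF, a small MAF protein that dimerizes with AP-1 type factors, was at 8.30, 7.91 and 8.18 in knockdown arrays and 9.54, 9.64 and 9.76 in scrambled arrays (-1.52, SE 0.0969, adjusted p = 2.9e-06). Of the 12 AP-1 genes, FOS (-0.99), JUNB (-0.90), JUND (-0.61), JUN (-0.50) and FOSL1 (-0.48) fell too, and ATF3, a stress factor of the family, rose by 0.40. The FOSL1 (-0.39, adjusted p = 0.131) and ATF3 (0.39, adjusted p = 0.0745) changes did not pass without scrambled replicate 3. All 3 probe sets of JUND fell, from -0.61 to -0.48.

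EGR3, a zinc finger factor of the EGR family, was at 6.13, 6.06 and 6.18 in knockdown arrays and 8.17, 8.31 and 8.02 in scrambled arrays, a 4.11-fold difference. EGR1 was brighter, at 10.54, 10.57 and 10.51 in knockdown arrays and 11.83, 11.91 and 11.82 in scrambled arrays, and its other probe set fell by 1.48. Both genes showed separate groups, as the choice of the 25 largest falls required. With them fell NAB2 (-0.81) and NAB1 (-0.30), the corepressors that bind EGR proteins, IER2 (-0.59) and the orphan nuclear receptors NR4A2 (-0.46) and NR4A1 (-0.43), 7 of 15 with 0 rises.

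Genes that damp ERK signalling moved both ways, 5 down and 2 up of 14; 3 fell without scrambled replicate 1 or 2, and 3 without knockdown replicate 2 or 3. SPRY4 (-0.995), a Sprouty inhibitor of the pathway, PHLDA1 (-0.85), the phosphatases DUSP5 (-0.50) and DUSP1 (-0.36), and SPRY2 (-0.40) fell, while DUSP7 (0.37) and the G protein regulator RGS2 (0.46, not passing without scrambled replicate 3) rose. The mRNA decay factors ZFP36 (-1.36) and ZFP36L1 (-0.70), which bind AU-rich elements of cytokine transcripts, fell with BTG3 (-0.39), 3 of 18, and the Kruppel-like factors KLF6 (-0.80) and KLF2 (-0.48) fell, 2 of 13. Across them 23 of 72 genes of the 5 early response lists fell and 3 rose, with a median of -0.11.

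Other large falls came from outside these lists. GDF15 was at 10.80, 10.80 and 10.82 in knockdown arrays and 12.18, 12.40 and 11.70 in scrambled arrays (-1.29, adjusted p = 0.000355), and its other probe set stood at -0.29. RHOB, a small GTPase of endosomes that is itself induced early, was at 9.01, 8.84 and 8.94 in knockdown arrays, against 10.17, 10.31 and 9.77 in scrambled arrays (-1.15, adjusted p = 0.00017). In GDF15 and RHOB scrambled replicate 3 was the lowest of its group and still above every knockdown array. That separation was required by the choice of the 25 largest falls. The zinc finger activator ZNF143 fell by 1.06, the Hippo pathway coactivator WWTR1 by 1.02 and the cytokine receptor IL27RA by 0.98. Their other probe sets showed smaller changes: -0.17 for ZNF143, -0.41 and -0.20 for WWTR1, and -0.87 and -0.03 for IL27RA. The potassium channel KCNK1 fell by 1.002. The urokinase PLAU fell by 0.97, with its other probe set at -0.32, and FN1, which encodes fibronectin, fell by 0.65. The autophagy receptor SQSTM1 fell by 0.71 and the cell cycle inhibitor CDKN1A by 0.84. Of 47 autophagy and lysosome genes 9 fell and 4 rose, with ULK1, which starts autophagy, at -0.29, the receptors OPTN at -0.37 and NBR1 at -0.33, and WIPI2 at -0.39. Of 41 cytokine receptor, JAK and STAT genes 7 fell and 4 rose: IL4R (-0.60), IL10RA (-0.51), STAT3 (-0.41), IL2RG (-0.41) and the kinase PIM1 (-0.57) were among the falls. Both lists depended on single arrays: the autophagy falls numbered 3 without scrambled replicate 2 or knockdown replicate 3 and 5 without knockdown replicate 1 or 2, and the receptor falls numbered 4 without scrambled replicate 2, knockdown replicate 2 or knockdown replicate 3. With 1 array left out the autophagy rises numbered 1 to 4 and the receptor rises 1 to 3, and ULK1 did not pass without scrambled replicate 3.

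Genes of the secretory pathway rose. HSPA5, the main HSP70 chaperone of the endoplasmic reticulum, was at 12.82, 12.81 and 12.78 in knockdown arrays and 11.98, 12.01 and 11.88 in scrambled arrays (0.85, SE 0.059, adjusted p = 6.46e-06). SDF2L1, which works with HSPA5, was at 11.79, 11.85 and 11.75 in knockdown arrays and 11.001, 10.87 and 11.04 in scrambled arrays (0.83, adjusted p = 1.57e-05). In both genes the 3 knockdown arrays lay above all scrambled arrays, which the choice of the 25 largest rises required for HSPA5. Of 25 chaperones and disulfide isomerases 9 rose and 0 fell: PDIA4 (0.68), HYOU1 (0.56), DNAJC10 (0.46), MANF (0.44), PDIA3 (0.39), CRELD2 (0.34) and CALR (0.28) were the other 7.

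Later steps rose as well. SEC24D, a cargo-binding subunit of the COPII coat that carries proteins out of the endoplasmic reticulum, was at 8.15, 8.30 and 8.37 in knockdown arrays and 7.47, 7.40 and 7.46 in scrambled arrays (0.83, adjusted p = 3.35e-05), and its other probe sets stood at 0.15 and 0.36. The GTPase SAR1B (0.41), the retrieval receptor KDELR3 (0.36), ARF4 (0.32), COPB2 (0.25) and TMED2 (0.21) rose too, 6 of 31 coat and transport genes, with 0 falls; 3 rose without knockdown replicate 2 or 3. For protein entry, SSR1 (0.41), SRPRB (0.39) and the channel subunit SEC61A1 (0.38) rose, 3 of 22, and all 4 probe sets of SSR1 rose, by 0.41 to 0.68. For degradation, HERPUD1 (0.49), EDEM2 (0.45), UBE2J1 (0.40) and SEL1L (0.39) rose, 4 of 15. For N-glycosylation, STT3A, the catalytic subunit of oligosaccharyltransferase (0.32), MAGT1 (0.31), ALG5 (0.29), GMPPA (0.27) and ALG6 (0.26) rose, 5 of 25, a count that was 1 in the fit on the 6 shRNA arrays alone, 2 after quantile normalization or without scrambled replicate 1 or 2, and 1 without knockdown replicate 2 or 3. Over these 5 secretory pathway lists 27 of 118 genes rose and 0 fell, 22.9% and 0%, with a median of 0.13; without scrambled replicate 3, 25 rose, 1 fell and the median was 0.10, with SEL1L, ARF4, TMED2 and ALG6 not passing. Of the 15 signalling genes of the unfolded protein response itself, CREB3L2 (0.32), a membrane-bound activator, rose and the phosphatase subunit PPP1R15A (-0.44) fell. Each is 6.67% of the list, near the 7.39% and 4.42% of all genes.

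The string of the ER stress response element, CCAAT and CCACG with 9 bases between them on either strand, was in 22 of 27305 RefSeq promoter windows (0.0806%). Of the 9563 measured genes with a window 12 held the string (0.125%). The string was in 3 of the 24 risen secretory genes with a window and in 7 of the 104 measured ones (6.73%). Here too a match of letters is a description and not a binding site. The 3 are shown because HSPA5 had the largest change of the chaperones; capitals mark the element (GRCh38.p14, 5′ to 3′ on the gene's strand).
HSPA5, chr9:125241361-125241439, minus strand: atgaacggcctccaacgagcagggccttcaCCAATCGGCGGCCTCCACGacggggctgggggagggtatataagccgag
CRELD2, chr22:49918524-49918602, plus strand: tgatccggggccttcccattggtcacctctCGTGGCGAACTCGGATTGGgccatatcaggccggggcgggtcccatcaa
CALR, chr19:12938359-12938432, plus strand: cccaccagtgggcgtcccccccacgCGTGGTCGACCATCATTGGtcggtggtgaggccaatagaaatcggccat

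The element ran forward in HSPA5, from 66 bases before the start, and in reverse in CRELD2 and CALR.

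**Figure D3:**
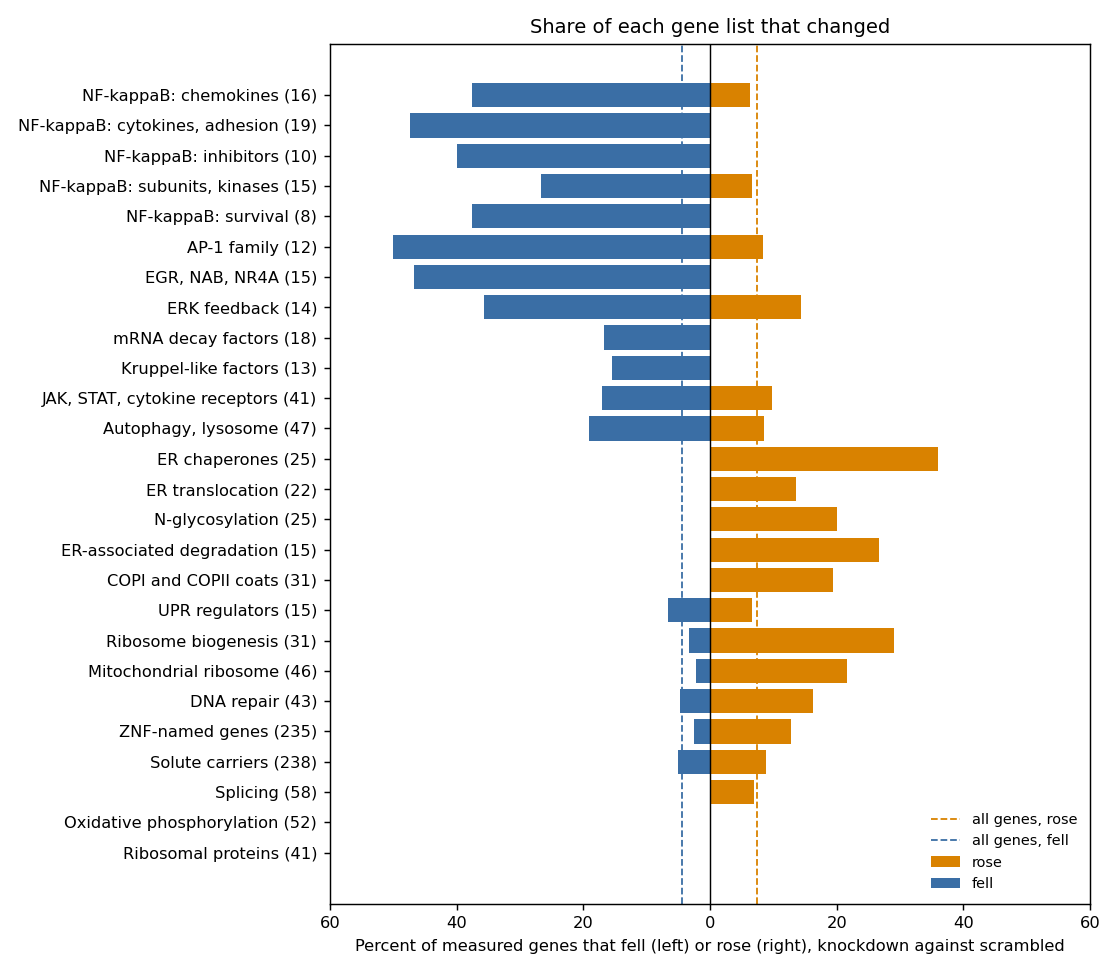
Percent of measured genes in each list (number measured in brackets) that fell (left of 0) or rose (right of 0) in knockdown arrays against scrambled arrays (limma, adjusted p); dashed lines mark 4.42% and 7.39%, the shares over all genes. NF-kappaB and early response lists extend to the left and secretory pathway lists to the right, while 0 oxidative phosphorylation and ribosomal protein genes passed in the fit plotted.

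Genes for making ribosomes rose in part, while ribosomal protein genes did not pass. Of 31 ribosome biogenesis genes 9 rose, with the RNA polymerase I factor UBTF at 0.54, MRTO4 at 0.42 and RRS1 at 0.40, and NHP2 fell by 0.25, not passing without scrambled replicate 3; 3 rose in the fit on the 6 shRNA arrays alone and 5 without knockdown replicate 2 or 3. Of 46 mitochondrial ribosome genes 10 rose, with MRPL12 at 0.55 and MRPL40 at 0.38, and MRPL16 fell by 0.24; that fit gave 4 rises, and leaving out knockdown replicate 2 gave 6. By limma 0 of 41 cytoplasmic ribosomal protein genes passed, 0 also at an unadjusted p under 0.05, and 3 fell without _s_at and _x_at probe sets; 2 of the 41 had a positive change and the median was -0.04. Of 52 oxidative phosphorylation genes 0 passed, while at an unadjusted p under 0.05 5 were lower and 1 higher, and 3 fell with a trended robust prior.

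Of 235 ZNF-named zinc finger genes, many of them DNA-binding repressors with a KRAB domain, 30 rose (12.8%) and 6 fell (2.55%), with a median of 0.08. Over all genes rises also outnumbered falls, 7.39% against 4.42%. ZNF22 was at 9.96, 9.90 and 9.99 in knockdown arrays and 8.73, 8.75 and 8.65 in scrambled arrays, and its other probe set rose by 1.20. ZNF629 (0.75), ZNF551 (0.71) and ZNF623 (0.70) followed. The count of rises was 29 after quantile normalization, 18 without scrambled replicate 2 and 13 without knockdown replicate 1. Over all genes the rises numbered 884 in the main fit and 787, 569 and 498 in these settings. Of 238 solute carrier genes 21 rose (8.82%) and 12 fell (5.04%), near the 7.39% and 4.42% of all genes, with 11 rises without knockdown replicate 1 and 13 without knockdown replicate 3. The zinc exporter SLC30A1 rose by 1.18 and the sulfate transporter SLC26A2 by 1.01, and the transporter-like gene SLC35G2 (-0.90) and the glucose transporter SLC2A6 (-0.83) fell.

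Among Wnt genes 3 Frizzled receptors rose: FZD3 (0.83), FZD2 (0.48) and FZD1 (0.38), 3 of 34 receptors and ligands (8.82%, near the 7.39% of all genes) with 0 falls. FZD3 was at 7.78, 7.55 and 7.65 in knockdown arrays and 7.05, 6.97 and 6.47 in scrambled arrays, where replicate 3 was the lowest, and the change was 0.65 without it; FZD2 did not pass without it (0.43, adjusted p = 0.0858), nor did TLE2 below. Of 31 intracellular components APC (0.42) and the corepressor TLE3 (0.38) rose (6.45%), and AXIN1 (-0.48), TLE2 (-0.39) and LEF1 (-0.24) fell (9.68%). Over all genes 7.39% rose and 4.42% fell, and the median of the intracellular list was 0.00543. The intracellular falls numbered 5 after quantile normalization and 1 without knockdown replicate 1. Of 20 target genes 1 rose (5%) and 3 fell (15%), with JUN and FOSL1, also AP-1 genes, among the falls. In the BMP and TGF-beta list 6 of 37 rose: the pathway inhibitors SKIL (1.03; 0.78 without scrambled replicate 3), SMAD7 (0.74) and BAMBI (0.30), the target ID3 (0.89), HES1 (0.44) and SMAD1 (0.42); GDF15 and ID2 (-0.65) fell. The rises numbered 3 without knockdown replicate 1.

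Other large rises came from single genes of varied function. SSH1, a phosphatase that activates cofilin, was at 8.19, 7.85 and 8.12 in knockdown arrays and 7.01, 6.52 and 6.69 in scrambled arrays, and its other probe set rose by 0.81. NAV2, a cytoskeletal protein of neurite growth, was at 9.86, 9.56 and 9.63 in knockdown arrays and 8.78, 8.54 and 8.67 in scrambled arrays (1.02, adjusted p = 0.000107). G0S2, an inhibitor of triglyceride lipase, was at 6.79, 6.60 and 6.49 in knockdown arrays and 5.56, 5.48 and 5.73 in scrambled arrays (1.04, adjusted p = 5.98e-05). In these 3 genes all knockdown arrays were above all scrambled arrays, as the choice of the 25 largest rises required.

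The clock genes PER2 (0.94) and CRY1 (0.55), which encode repressors of the circadian oscillator, rose; the other PER2 probe set stood at -0.01. The glycoprotein PAEP rose by 0.97, the RAS activator RASGRP1 by 0.92, the cilium gene RPGRIP1L by 0.89, the gamma-tubulin complex gene TUBGCP3 by 0.88 and the protocadherin FAT1 by 0.87. The other TUBGCP3 probe set stood at 0.24. GDE1 rose by 0.95, with scrambled replicate 3 at 6.44 against 7.19 and 7.21 in the other scrambled arrays, and by 0.70 without it. SELENOT, a selenoprotein of the endoplasmic reticulum, was at 9.22, 9.32 and 9.36 in knockdown arrays and 8.75, 8.59 and 7.33 in scrambled arrays, a change of 1.08 that was 0.63 without scrambled replicate 3. THBS1, an adhesive matrix glycoprotein, was the largest rise at 1.53, while its other 4 probe sets stood between -0.14 and 0.38.

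**Figure D4:**
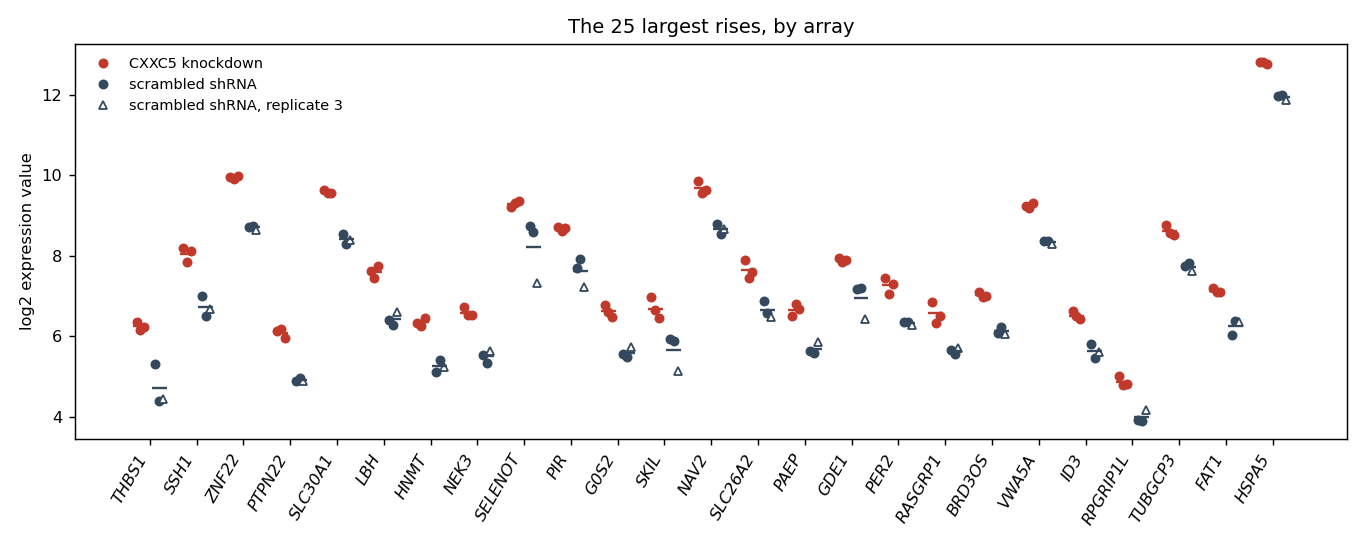
Log2 expression value (y axis) of the 25 genes with the largest rises in each knockdown array (left of each gene, red) and each scrambled shRNA array (right, dark), with lines at the means and open triangles for scrambled replicate 3. The genes were chosen for size and for groups that do not overlap; in SELENOT and GDE1 the triangle lies far below the other scrambled arrays.

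Red cell genes changed both ways. The embryonic globins HBE1 (-0.56) and HBZ (-0.44) fell, 2 of 7 globins, while the other HBE1 probe set stood at 0.11. The haem enzymes ALAS2 (-0.49), ALAS1 (-0.34), CPOX (-0.29) and PPOX (-0.36) fell with the transferrin receptor TFRC (-0.43). ALAD (0.60) and FECH (0.34), enzymes of an early and the final step of haem synthesis, rose. Of 23 haem and iron genes 4 rose (17.4%) and 6 fell (26.1%), with a median of 0.05; HMOX2 (0.39) and NFS1 (0.27) were the other rises and ISCU (-0.24) the other fall. The falls numbered 3 without knockdown replicate 1 and the rises 2 without knockdown replicate 2. Of 24 red cell membrane genes 2 rose and 1 fell (8.33% and 4.17%), CD47 (0.33), XK (0.20) and SPTB (-0.41). These shares were near the 7.39% and 4.42% of all genes. HBZ was at 12.60, 12.60 and 12.60 in knockdown arrays and 12.98, 13.02 and 13.14 in scrambled arrays. The erythroid factor GATA1 rose by 0.47 and the myeloid factor CEBPA by 0.43, while GATA2 (-0.34), SPI1 (-0.27) and RUNX3 (-0.32) fell. Of 30 blood transcription factors 4 rose (13.3%) and 5 fell (16.7%), against 7.39% and 4.42% of all genes. The rises numbered 2 without knockdown replicate 1 or 3 or any 1 scrambled replicate. The falls numbered 2 without knockdown replicate 2 and 3 without knockdown replicate 3 or scrambled replicate 1 or 2. Of 43 DNA repair genes 7 rose (16.3%) and 2 fell (4.65%), the falls near the 4.42% of all genes. FANCF stood at 0.55, ERCC1 at 0.34 and MRE11 at -0.37. The rises depended on the arrays used: 1 rose in the fit on the 6 shRNA arrays alone or without knockdown replicate 1. The rises numbered 3 without knockdown replicate 2 or 3 or scrambled replicate 3, and 4 without scrambled replicate 2. The immunoproteasome subunits PSMB9 (0.65) and PSMB8 (0.47) rose and the activator subunit PSME1 fell by 0.25, and RSAD2 (0.71), IFI16 (0.69) and TRIM22 (0.67) rose as well. These 5 rises were 9.43% of 53 interferon genes, near the 7.39% of all genes, IRF3 (-0.28) and IFITM2 (-0.24) fell, and the median of the list was -0.00294. Without scrambled replicate 3 SPI1, RUNX3, ERCC1, PSME1 and TRIM22 did not pass.

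Probe sets of 1 gene mostly moved together. Among the 575 genes that changed and had more than 1 probe set, 807 of 959 other probe sets had the same sign, 291 passed the same way and 2 passed the opposite way. Those 2 belong to DBP, a clock output factor (-0.31 at the brighter set and 0.44 at the dimmer), and the receptor IL6R (0.60 and -0.40), whose other set was the dimmer. Where a gene had 3 or more probe sets and all rose, examples were SSR1, the RNA-binding protein RBMS1 (0.57), the kinase FYN (0.40) and the quinone reductase NQO1 (0.58). Where all fell, examples were ICAM1, JUND, the death receptor TNFRSF10B (-0.47) and HIP1R (-0.44).

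Neighbouring genes that changed the same way were mostly in pairs. Of 11932 genes placed in chromosome order, 99 runs of adjacent measured genes passed in the same direction, of which 88 held 2 genes, 10 held 3 and 1 held 4. With 7.39% of all genes rising and 4.42% falling, some runs arise without any link between neighbours. How many was not computed, so the count is a description only. The longest, on chromosome 15, held TP53BP1, MAP1A, PPIP5K1 and PDIA3, which all rose.

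The empty vector mean differed less from the knockdown mean than from the scrambled mean for 25 of the 25 largest falls and for 23 of the 25 largest rises, PAEP and PIR being the exceptions. These genes were chosen by knockdown and scrambled values that also enter this comparison, and the share over all genes was not computed. The counts therefore describe the chosen genes only. CXCL1 averaged 5.70 in knockdown, 9.35 in scrambled and 5.86 in empty vector arrays, LTB 7.83, 10.995 and 7.83, and EGR3 6.13, 8.17 and 6.10. SSH1 averaged 8.05, 6.74 and 8.00, and ZNF22 9.95, 8.71 and 9.84. Over the 25 largest falls the knockdown minus scrambled changes ran from -3.65 to -0.98, the knockdown minus empty vector changes from -0.63 (CXCL10) to 0.81 (GDF15) with a median of 0.03, and the scrambled minus empty vector changes from 0.74 to 3.49. Over the 25 largest rises these were 0.85 to 1.53, -0.64 (PER2) to 0.87 (PAEP) with a median of 0.02, and -1.58 to -0.10. The 3 differences share arrays, and the empty vector cells were nucleofected and not infected, so the route of delivery and the shRNA cannot be told apart in the differences from empty vector. Over the 5 NF-kappaB lists the median change was -0.14 from scrambled and -0.0085 from empty vector. For the 5 early response lists these medians were -0.11 and 0.03, and for the 5 secretory pathway lists 0.13 and 0.05. Over all genes they were -0.00911 and 0.0134. Genes picked after their values were seen included HSPA5, at 12.80 in knockdown, 11.95 in scrambled and 12.42 in empty vector arrays. PIR, an iron-binding coregulator, was at 8.67, 7.62 and 7.93. The knockdown means of HSPA5 and PIR were above those of both controls. CXCL8, at 9.57, 11.8 and 8.85, lay between the controls, below scrambled and above empty vector.

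**Figure D5:**
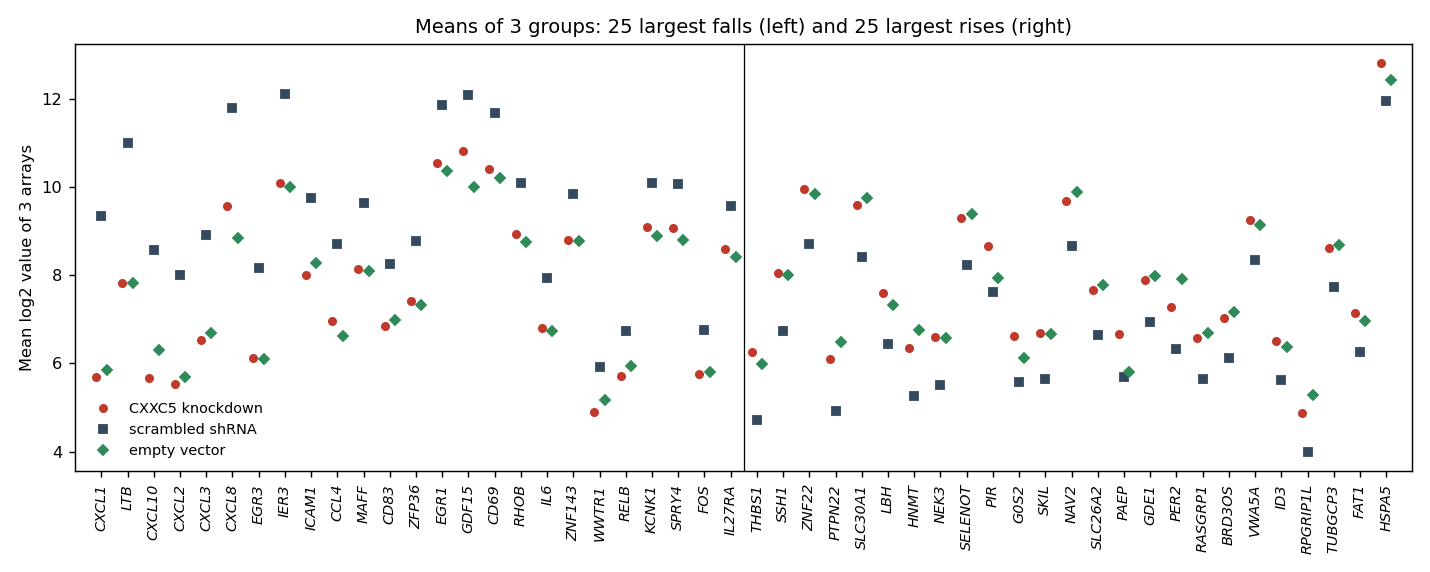
Mean log2 value (y axis) of 3 arrays in knockdown (circles), scrambled shRNA (squares) and empty vector (diamonds) for the 25 largest falls (left of the line) and the 25 largest rises (right). The squares of the falls stand above the circles and those of the rises below them, as for CXCL1 at 9.35 against 5.70 and 5.86.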

How the data were processed

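RNA of 12 K562 samples was hybridised to 1 Affymetrix array each. The deposited values were made by the authors with Affymetrix Expression Console, per the submitters' processing notes. The summarisation method, like the version, is not given in the sources used here. That they are log2 values was read from their range, and their medians were nearly equal, so they were used as deposited. Of 22277 probe sets, 62 controls were left out and 22215 tested, of which 19064 named 1 gene, 1043 several and 2108 none in the platform annotation.

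limma 3.58.1 (R 4.3.3; lmFit and eBayes, 4 group means over 12 arrays, two-sided) gave knockdown minus scrambled changes with Benjamini-Hochberg adjusted p over all 22215, and a change was counted at an adjusted p under 0.05. Each gene was read at its brightest probe set. Genes named were the 25 largest changes each way without overlap, up to 4 changed members of each list, genes with 3 or more probe sets that all changed one way, the 5 largest each way in the highest 10% of level, and genes whose probe sets changed in opposite directions; other list members were named after their values were seen. Members and lists were chosen with earlier results of these data known. On simulated data for this comparison over 22215 probe sets the fit recovered 16% of changes of 0.3 log2, 70% of 0.6 and 100% of 1 or more, with 5 false calls. The simulation gave every array independent noise of the same spread for each probe set. It held no array that stood apart like scrambled replicate 3, so these rates may not hold for the real arrays. The number of arrays limits the precision. Promoter windows came from RefSeq (GRCh38.p14).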

Additional observations from a re-analysis of the deposited data

How the results depend on the processing

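The reported analysis found 1971 probe sets (1241 rises, 730 falls) and 1413 genes (884 rises, 529 falls). On the 6 shRNA arrays alone these were 967 (576 and 391) and 720 (422 and 298), without probe sets ending in _s_at or _x_at 943 (582 and 361) and 838 (521 and 317), and at an adjusted p under 0.01 829 (505 and 324) and 634 (385 and 249). Leaving out 1 array at a time gave 1195 to 1769 probe sets (656 to 1119 rises, 465 to 650 falls) and 890 to 1218 genes (498 to 763 rises, 349 to 466 falls). The gene count was 890 without knockdown replicate 1, 911 without knockdown replicate 3 and 939 without scrambled replicate 2. Rises were 62.6% of the genes that changed, 52.9% after quantile normalization and 56.0% without knockdown replicate 1. The other settings, which were median centring, a filter on dim probe sets, a trended robust prior, array weights, quantile normalization and the mean of all probe sets, stayed within 1.5 times of these counts. Same-numbered arrays correlated at 0.3, -0.056 and 0.067 in their deviations from group means, so the numbers were not taken as pairs; with the replicate block 2040 probe sets and 1411 genes changed.

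Without _s_at and _x_at probe sets, which changes the probe set read, the log2 changes of CEBPD (0.0242), CFLAR (0.000187), DLC1 (-0.0233), NR4A1 (0.0569), PTGS1 (-0.00453), PTPN22 (-0.0226) and THBS1 (-0.14) reversed; with the mean of all probe sets so did DBP (0.0667) and VAMP3 (0.00988). Of 245 genes that changed and were named by the rule, 151 kept the call under every alternative that gave a value; list members named beyond the rule, such as ULK1 and ALG6, were not in this count. Names ending in _s_at or _x_at, which can read more than 1 transcript, were used for 8 of the 25 largest falls and 12 of the 25 largest rises.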
